A study of Mus musculus with 6 samples.

Results

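The fat genes described here are 34 genes of brown and white adipocytes, read in RNA from mouse aorta. They were chosen by symbol from published knowledge of fat, with earlier results of these data known. Each symbol matched 1 of the 36557 gene rows, and all 34 passed the filter on low counts that left 17392 genes to test. Of these genes, 14 belong to the thermogenic programme of brown fat and 20 are general adipocyte genes that white fat expresses as well.

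RNA sequencing covered the aortic arch and thoracic aorta of mice on a high-fat diet for 4 weeks. All 6 libraries came from mice without a functional Apoe gene, a background in which blood cholesterol is high and atherosclerotic plaques form. The 3 control libraries are labelled Apoe-/- control, and the 3 knockout libraries Apoe-/- MiR26b-/-, so they lack the microRNA miR-26b in addition. The vessels were flushed with buffer before they were taken. The labels used here give neither age nor sex, do not say how much of the surrounding fat was removed, and do not say whether each library is a separate animal, so the p-values below reflect library-to-library spread, which may be technical.

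The aorta of the mouse is wrapped in perivascular fat, which around the thoracic segment resembles brown fat. Brown adipocytes burn fatty acids in mitochondria whose inner membrane is uncoupled by Ucp1, and they switch this programme on when noradrenaline reaches beta-adrenergic receptors. White adipocytes store triglyceride in a large droplet coated with perilipins and secrete hormones such as adiponectin, and brown adipocytes share most of that machinery.

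miR-26b is the molecule missing from the knockouts, and its sequence is shown with that of its family member miR-26a because both carry the same seed, bases 2 to 8, in capitals. The sequences are from RefSeq on GRCm38.p6.
mmu-miR-26b-5p: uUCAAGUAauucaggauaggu
mmu-miR-26a-5p: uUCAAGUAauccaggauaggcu
The reverse complement of the seed, TACTTGA, was searched on the transcript strand in the longest annotated 3′ UTR of each gene. It was present in 0 of the 34 fat genes and in 11.14% of 16137 tested protein-coding genes. With the site ACTTGAA, which can overlap it, counted as well, 1 fat gene (Gk, glycerol kinase) and 20.87% of the tested genes held a site. Median 3′ UTR length was 1083 bases in the fat genes and 1193 bases in the tested genes. These counts describe letters in the transcripts only.

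Promoters of 3 members are shown because these genes mark the contrasts below. Ucp1 and Adipoq, the defining genes of the brown and the general list, varied with the other fat genes, and Dio2 did not. Of the 34 members, 23 had a promoter in the RefSeq table (GRCm38.p6), each of 300 bases. In the Ucp1 promoter at chr8:83290098-83290397 (plus strand), capitals mark TGACG, the core of a cAMP response element, and AGGTCA, the core letters bound by nuclear receptors. In the Adipoq promoter at chr16:23146286-23146585 (plus strand), they mark 3 CCAAT boxes, of which ATTGG is the other strand. In the Dio2 promoter at chr12:90738989-90739288 (minus strand), they mark the full cAMP response element TGACGTCA and the TATA box TATAAA.
Ucp1: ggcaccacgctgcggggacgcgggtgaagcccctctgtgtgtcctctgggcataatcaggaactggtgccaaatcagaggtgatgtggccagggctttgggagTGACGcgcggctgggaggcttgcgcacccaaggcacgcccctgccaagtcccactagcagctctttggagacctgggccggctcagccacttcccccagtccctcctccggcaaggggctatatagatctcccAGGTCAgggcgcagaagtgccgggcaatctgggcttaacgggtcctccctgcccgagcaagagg
Adipoq: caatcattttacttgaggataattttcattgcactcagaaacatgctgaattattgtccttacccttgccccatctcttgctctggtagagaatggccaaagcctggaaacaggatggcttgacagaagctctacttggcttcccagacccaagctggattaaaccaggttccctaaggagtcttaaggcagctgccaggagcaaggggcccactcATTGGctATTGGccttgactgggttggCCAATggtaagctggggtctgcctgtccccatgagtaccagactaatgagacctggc
Dio2: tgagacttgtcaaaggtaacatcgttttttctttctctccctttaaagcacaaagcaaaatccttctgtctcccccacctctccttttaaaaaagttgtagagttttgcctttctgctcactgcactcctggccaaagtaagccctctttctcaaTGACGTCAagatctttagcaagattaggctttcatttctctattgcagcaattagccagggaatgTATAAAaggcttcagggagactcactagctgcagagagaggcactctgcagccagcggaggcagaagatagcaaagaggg
Searched on both strands in 32851 promoters of this length, TGACG was found in 20.8%, AGGTCA in 16.3%, CCAAT in 37.4%, TGACGTCA in 1.79% and TATAAA in 13.6%. TGACG overlaps TGACGTCA. Among the 23 matched members, TGACG was found in 5 promoters, AGGTCA in 3 and CCAAT in 9. A match is not evidence of binding.

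The deposited totals were between 51634139 and 54817547 estimated counts per library. The main axis of variation (61.9% of variance) put the controls between -45.3 and -25.4 and knockout replicates 1 and 2 at 47.0 and 55.7, with knockout replicate 3 at 0.971. The level of miR-26b itself was not analysed here, so the deletion was not checked. Knockout replicate 3 stood between the groups, and the calls, list medians, spread, balance and covariate fit are given below with and without it. Of 17392 tested genes, 1798 (10.3%) passed an adjusted p of 0.05 in edgeR's quasi-likelihood test. Macrophage markers were higher in the knockouts for 6 of 6 genes, with summed levels of 441 to 558 CPM (counts scaled by library size) in controls and 1069 to 2945 in knockouts. Smooth muscle markers were lower for 3 of 5 genes, with summed levels of 30840.2 to 35446 CPM in controls and 20877 to 24644 in knockouts, and adventitial fibroblast markers were higher for 3 of 5. Without knockout replicate 3 these counts were 6 of 6, 5 of 5 and 5 of 5, beside 2028 lower and 3051 higher of 17720 genes. No marker of these 3 lists was at 0 in any library. The part of these cell types in the results on fat genes was not tested.

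The fat genes formed a block that was high in some libraries of both genotypes and low in others. No fat gene passed the test between the genotypes, in either direction. The defining markers of both kinds of adipocyte had counts in every library: per transcript length, Ucp1 had the highest TPM of the thermogenic genes in each library (66.1 to 644), and Fabp4 that of all 34 fat genes (516 to 1989). The median thermogenic gene was 0.86 above the control mean (log2 CPM) in control replicate 1, 0.05 above in control replicate 2 and 0.91 below in control replicate 3. In the knockouts the same median was -1.71 and -1.57 in replicates 1 and 2 and 0.44 in replicate 3. General adipocyte genes gave 0.66, 0.20 and -0.81 in the controls and -1.55, -0.92 and 0.40 in the knockouts. On both lists knockout replicate 3 lay between control replicates 1 and 2, while knockout replicates 1 and 2 lay below every control.

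**Figure D1:**
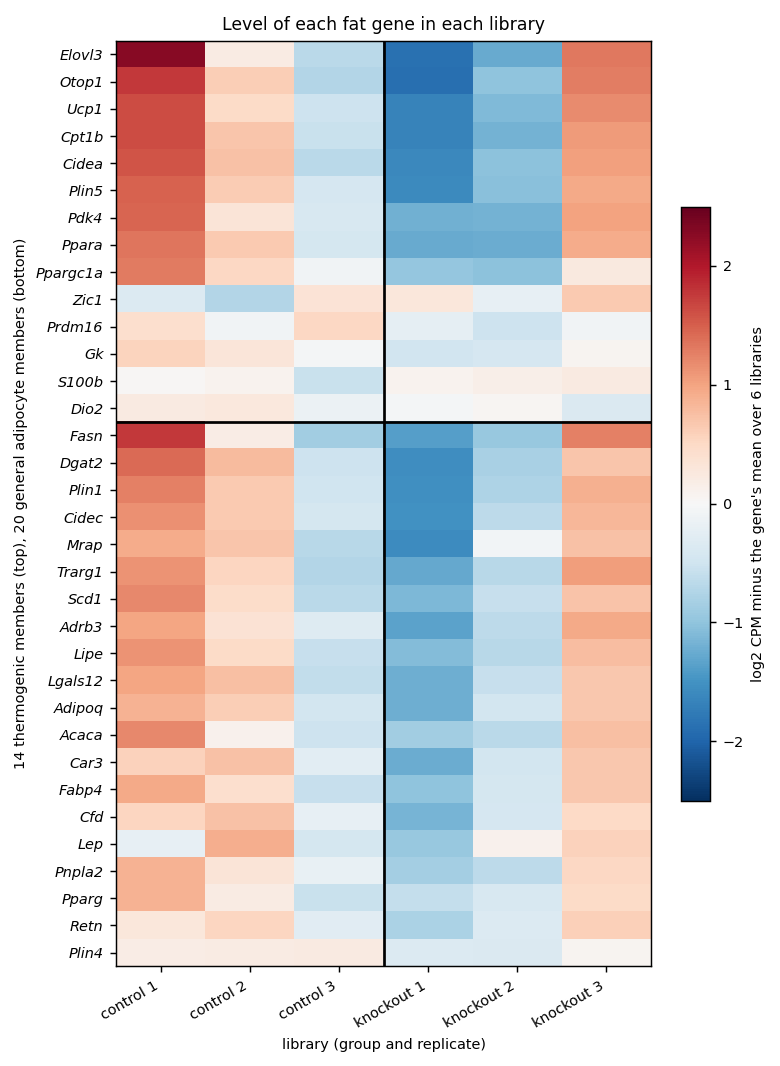
Heat map of the 34 fat genes (rows; 14 thermogenic genes above the line, 20 general adipocyte genes below it) in the 6 libraries (columns). Colour is log2 CPM minus the gene's mean over the 6 libraries. Control replicate 1 and knockout replicate 3 are red for most genes, and knockout replicates 1 and 2 are blue.

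Counted over genes, control replicate 1 was highest for 25 of the 34 and knockout replicate 1 lowest for 28. The order control 1, knockout 3, control 2, control 3, knockout 2, knockout 1 was found in 16 genes. The share of all tested genes was not taken for these counts. Knockout replicates 1 and 2 were both below knockout replicate 3 for 33 of 34 fat genes, against 38.1% of all tested genes. Control replicate 3 was the lowest control for 31 of 34, against 35.96% of all tested genes. In a bulk sample, fewer adipocytes and less of these RNAs per adipocyte cannot be told apart.

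Ucp1, the uncoupling protein that makes heat in brown fat (chromosome 8, 83290352 to 83298452, plus strand, GRCm38), reached 600.4, 270.5 and 135 CPM in control replicates 1, 2 and 3. In the knockouts it was 60.4, 89.7 and 437 CPM. The groups overlapped through knockout replicate 3, which exceeded control replicates 2 and 3. Means were 335 ± 239 CPM in controls and 196 ± 209 CPM in knockouts (SD, n = 3 each). The fitted log2 difference was -0.78 with a standard error of 0.85 (edgeR adjusted p = 0.577), so it was smaller than its error.

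Dio2, the deiodinase that activates thyroid hormone and is induced by adrenergic signals in brown fat (chromosome 12, 90724552 to 90738438, minus strand), behaved differently. Its levels were 95.7, 98.3 and 73.8 CPM in controls and 78.9, 84.1 and 63.6 CPM in knockouts. Its highest library was only 1.55-fold above its lowest, compared with 9.94-fold for Ucp1, and knockout replicate 3, rich in Ucp1 RNA, had the lowest Dio2. The log2 difference of -0.24 (standard error 0.14) did not pass the test (edgeR adjusted p = 0.311).

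Of the 4 regulators of the brown programme, Ppargc1a and Prdm16 had the lowest p-values. Ppargc1a, the coactivator PGC-1α that drives mitochondrial biogenesis, was 22.2, 13.0 and 8.56 CPM in controls and 4.66, 4.48 and 10.8 CPM in knockouts. Only knockout replicate 3 overlapped the controls, and the log2 difference was -1.14 with a standard error of 0.47 (edgeR adjusted p = 0.157). Ppargc1a had the lowest fitted value of the 34 genes.

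Prdm16, the zinc finger factor that commits precursors to brown fat (chromosome 4, 154316125 to 154636873, minus strand), stood at 146, 102.4 and 157 CPM in controls and 93.6, 75.8 and 102.2 CPM in knockouts. The groups did not overlap, but control replicate 2 and knockout replicate 3 all but met. Its difference of -0.58 (standard error 0.18) had an edgeR adjusted p of 0.0866. Prdm16 did not follow the block: control replicate 3, poor in Ucp1 RNA, had the most Prdm16.

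Ppara, the nuclear receptor that switches on fatty acid oxidation, followed the block, at 20.8, 12.9 and 6.07 CPM in controls and 3.44, 3.49 and 15.6 CPM in knockouts. Zic1, a zinc finger gene of classical brown fat, had few counts, at 0.288 to 0.609 CPM in controls and 0.580, 0.418 and 0.758 CPM in knockouts. Its fitted difference was +0.46 (standard error 0.36), and its 3 knockout levels overlapped the controls.

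Of the genes of fatty acid use, 3 followed the block. Elovl3, a fatty acid elongase of brown fat, was 23.6, 5.63 and 3.02 CPM in controls and 1.33, 2.03 and 12.0 CPM in knockouts. That was a 17.8-fold span between control replicate 1 and knockout replicate 1, the widest of the 34 genes. Cpt1b, which carries fatty acids into mitochondria, was 111, 57.8 and 24.3 CPM in controls and 11.3, 15.7 and 75.2 CPM in knockouts. Pdk4, the kinase that shuts glucose carbon out of mitochondria, was 234, 107 and 64.3 CPM in controls and 37.2, 37.5 and 169.8 CPM in knockouts. All 3 had the commonest order of libraries, and their log2 differences of -1.07, -0.92 and -0.73 had standard errors of 1.038, 0.83 and 0.73 (edgeR adjusted p = 0.530, 0.497 and 0.543). Gk, glycerol kinase, moved less, with 82.8, 68.8 and 54.4 CPM in controls and 40.4, 41.7 and 58.7 CPM in knockouts. Its log2 difference was -0.55 (standard error 0.20; edgeR adjusted p = 0.119).

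Both droplet proteins of oxidative fat varied together. Cidea, which enlarges lipid droplets in brown adipocytes, was 182, 102 and 38.6 CPM in controls and 20.1, 30.4 and 125 CPM in knockouts. Plin5, the perilipin that couples droplets to mitochondria, was 21.3, 11.9 and 5.74 CPM in controls and 2.55, 3.72 and 14.7 CPM in knockouts. Fitted log2 differences were -0.88 and -0.89 (edgeR adjusted p = 0.500 and 0.463).

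Otop1, a proton channel enriched in brown fat, was 36.9, 16.7 and 6.52 CPM in controls and 2.94, 5.39 and 26.3 CPM in knockouts. S100b, a calcium-binding protein of brown fat and of glial cells, was the only fat gene whose knockout libraries all exceeded the controls. It was 9.96, 10.3 and 6.62 CPM in controls and 10.4, 10.7 and 11.3 CPM in knockouts, a log2 difference of +0.27 (standard error 0.17; edgeR adjusted p = 0.335). Markers of Schwann cells, the glia of nerves, summed to 52.2 to 58.3 CPM in controls and 45.9 to 56.2 CPM in knockouts. One of those 6 markers, Prx, was lower, none was at 0 in any library, and their part in the S100b level was not tested.

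**Figure D2:**
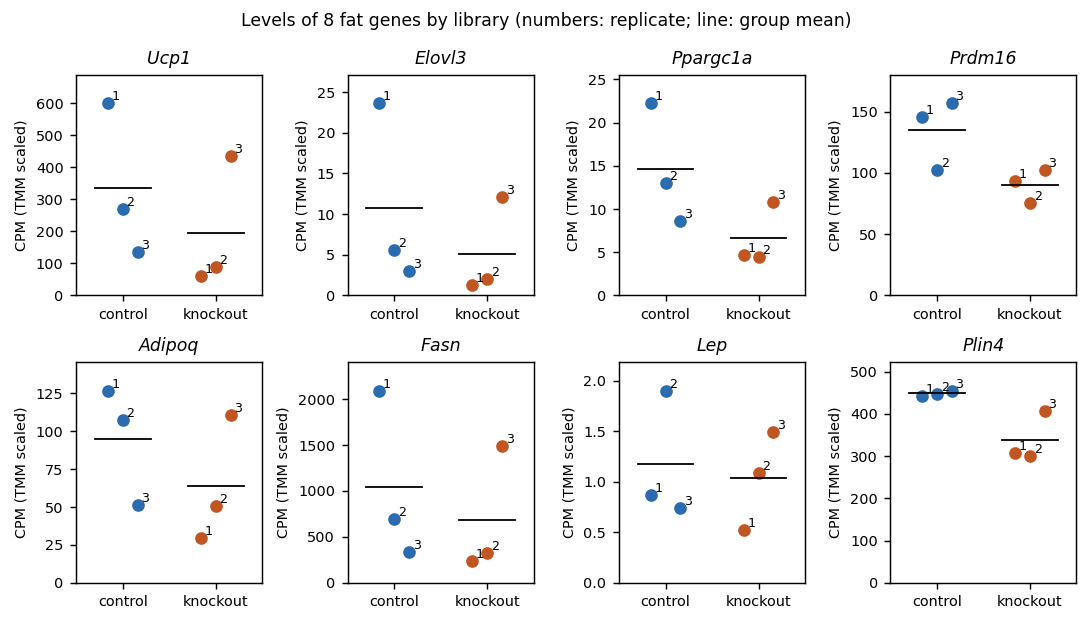
Levels of 8 fat genes in each library, in CPM on a linear axis from 0, with replicate numbers beside the points and a line at the group mean. In the panels of Ucp1, Elovl3 and Fasn, control replicate 1 and knockout replicate 3 stand above the other libraries, whereas Plin4 is level at 443 to 455 CPM in the controls.

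General adipocyte genes repeated the pattern with a narrower span. The median ratio of the highest to the lowest library was 4.42 for them and 6.16 for the thermogenic genes. Adipoq, the hormone adiponectin (chromosome 16, 23146536 to 23158028, plus strand), was 127, 107 and 51.2 CPM in controls and 29.8, 50.5 and 111 CPM in knockouts. Means were 95.1 ± 39.3 and 63.8 ± 42.2 CPM (SD, n = 3 each), and the log2 difference of -0.58 (standard error 0.53) did not pass (edgeR adjusted p = 0.502).

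The other secreted products were less tied to control replicate 1. Cfd, the adipokine adipsin, was highest in control replicate 2, at 456, 522 and 273 CPM in controls against 139, 236 and 443 CPM in knockouts. Retn, resistin, was 21.3, 25.2 and 14.4 CPM in controls and 10.1, 13.8 and 26.2 CPM in knockouts. Lep, the white fat hormone leptin, had few counts, at 0.869, 1.90 and 0.742 CPM in controls and 0.524, 1.08 and 1.496 CPM in knockouts. All 3 overlapped between the genotypes, with log2 differences of -0.61, -0.28 and -0.18 (edgeR adjusted p = 0.390, 0.648 and 0.838).

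Droplet proteins divided. Plin1, the perilipin that guards the white fat droplet, was 166, 111 and 49.4 CPM in controls and 24.1, 40.9 and 129 CPM in knockouts, and Cidec, which fuses droplets, ranged likewise from 18.6 to 118 CPM. Plin4 (chromosome 17, 56100591 to 56109803, minus strand), a perilipin of nascent droplets, was level across the controls at 443, 448 and 455 CPM. It was 306, 300.0 and 407 CPM in the knockouts. The groups did not overlap, and its log2 difference of -0.41 (standard error 0.12) had the lowest adjusted p of the 34 genes (edgeR adjusted p = 0.0772). Plin5 lies beside it on the same strand, from 56111601 to 56117596, and its highest library was 8.35-fold above its lowest, against 1.52-fold for Plin4.

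Lipolysis genes followed the block. Lipe, hormone-sensitive lipase, was 159.7, 102 and 49.5 CPM in controls and 34.7, 45.8 and 125 CPM in knockouts. Pnpla2, the triglyceride lipase ATGL, was 332, 226 and 159 CPM in controls and 100.4, 116 and 259.7 CPM in knockouts. Adrb3, the β3-adrenergic receptor that triggers lipolysis, was 41.5, 26.9 and 16.7 CPM in controls and 8.24, 13.2 and 39.96 CPM in knockouts. Adrb3 in knockout replicate 3 nearly reached control replicate 1, and none of these differences passed (edgeR adjusted p from 0.391 to 0.641).

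All 4 lipid synthesis enzymes were highest in control replicate 1. Scd1, the desaturase that makes oleate, was 3897, 2323 and 1058 CPM in controls and 772, 1135 and 2785 CPM in knockouts. Fasn, fatty acid synthase, was 2092, 699 and 336 CPM in controls and 238, 320.1 and 1487 CPM in knockouts. Control replicate 1 held 6.22 times the Fasn of control replicate 3, and knockout replicate 3 held 6.25 times that of knockout replicate 1, whereas the control mean was 1.53 times the knockout mean. Acaca, acetyl-CoA carboxylase, ranged from 99.8 to 419 CPM in the same order of libraries. Dgat2, the last enzyme of triglyceride synthesis, was 200.1, 131 and 52.3 CPM in controls and 25.5, 42.6 and 121 CPM in knockouts. Dgat2 had the lowest fitted value of the general list, a log2 difference of -1.02 (standard error 0.68; edgeR adjusted p = 0.361).

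Among the remaining general genes, Fabp4, a fatty acid carrier of adipocytes that macrophages also make, was 889, 615 and 313 CPM in controls and 231, 339 and 734 CPM in knockouts. Pparg, the master regulator of adipocyte differentiation, was 38.6, 24.4 and 14.4 CPM in controls and 14, 16.1 and 29.3 CPM in knockouts. Car3, the carbonic anhydrase of fat, peaked in control replicate 2 at 568 CPM and was lowest in knockout replicate 1 at 146 CPM. Mrap, an accessory protein of melanocortin receptors, Trarg1, a regulator of glucose transporter traffic, and Lgals12, a galectin on lipid droplets, had highest-to-lowest ratios of 5.62, 5.23 and 4.58. In each of these 6 genes the groups overlapped, with edgeR adjusted p from 0.473 to 0.707.

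Counted together, 0 of 14 thermogenic and 0 of 20 general genes were called lower by edgeR, against 667 of 17392 tested genes (3.84%). None was called higher, against 1131 of all (6.5%). At an unadjusted p under 0.05 there were 4 of 34, namely Ppargc1a, Prdm16, Gk and Plin4, against 30.7% of all tested genes. By DESeq2 these 4 were called lower, of 1357 lower calls over all genes (7.8%), with adjusted p of 0.0380, 0.0128, 0.0360 and 0.0138. The fitted value was below 0 for 32 of the 34 genes (50.6% of all tested genes), the exceptions being Zic1 and S100b. The median log2 difference was -0.79 over the thermogenic and -0.56 over the general genes, beside -0.0033 over all tested genes. Groups did not overlap for Prdm16 and Plin4, which were lower (17.2% of all tested genes), and for S100b, which was higher (18.9% of all tested genes).

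**Figure D3:**
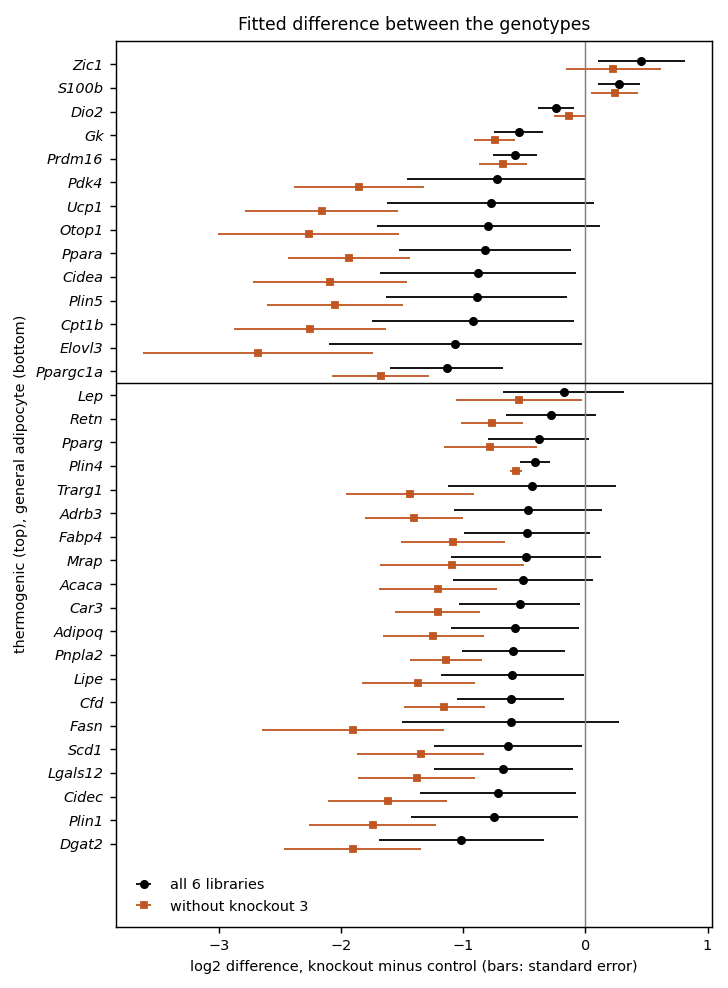
Fitted log2 difference, knockout minus control, for each fat gene with its standard error, from all 6 libraries (black circles) and without knockout replicate 3 (orange squares). Most black bars reach or come near 0, and the orange values lie further left for every gene except Dio2.

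With all 6 libraries, the spread inside both groups exceeded the difference between them for most fat genes. Without knockout replicate 3 this held in both groups for few genes, but in the controls alone for most. The knockout range then comes from replicates 1 and 2 only, so it cannot be set against a range over 3 libraries. The range of a gene across the 3 libraries of a group, averaged over both groups, had a median of 1.75 (log2 CPM) over the fat genes and 0.25 over all tested genes, a ratio of 7.02. It was 1.996 for the thermogenic and 1.70 for the general genes. For 29 of the 34 genes this range was wider than in 90% of all tested genes, and for 30 the range within each genotype was wider than the fitted difference between genotypes. Both genotypes contributed, with median ranges of 1.58 in controls and 1.89 in knockouts, beside 0.20 and 0.27 over all tested genes. Without knockout replicate 3 the median knockout range was 0.55 in the fat genes and 0.10 in all tested genes, and the range averaged over both groups was 1.033 against 0.16, a ratio of 6.32. The fat genes wider than 90% of all tested genes were then 27. Those whose range within each genotype exceeded the difference fitted without that library were then 3, although the control range alone exceeded it for 21. The counts of 30, 3 and 21 were not taken over all tested genes, so they have no background to be read against. Control replicate 1 exceeded control replicate 3 more than 2-fold in 24 fat genes (3.13% of all tested genes), and knockout replicate 3 exceeded knockout replicate 1 more than 2-fold in 28 (2.82%). Knockout replicates 1 and 2 were more than 2-fold apart in 1. The biological coefficient of variation had a median of 0.484 in the fat genes and 0.127 in all tested genes.

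**Figure D4:**
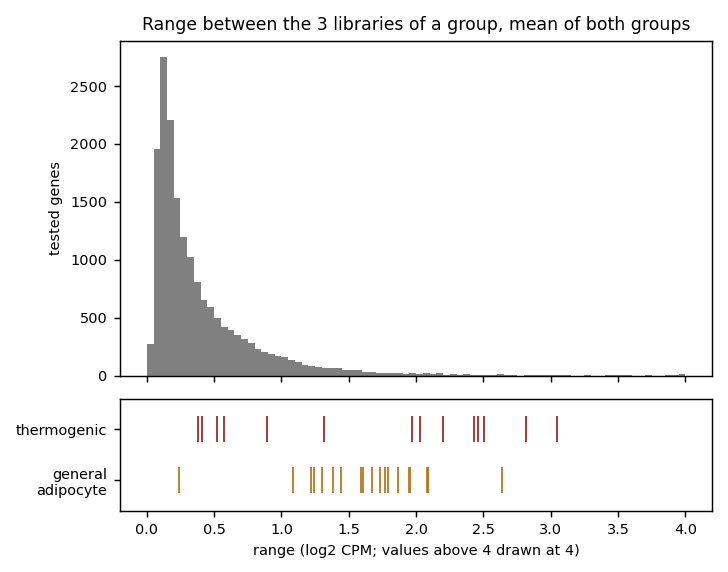
Histogram of the range of log2 CPM among the 3 libraries of a group, mean of both groups, for all tested genes (top), with the 34 fat genes as ticks on the same axis (bottom). The bulk of the tested genes lies below 0.5, while most fat genes lie between 1 and 3.

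The fat genes made up 1.12%, 0.714% and 0.385% of all counts in the controls, in replicate order. In the knockouts they made up 0.261%, 0.353% and 0.902%. How much fat stayed on each vessel at dissection was not recorded in the labels, and its part in these values was not tested.

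Without knockout replicate 3, edgeR called 14 of the 34 genes lower and 0 higher. Over all 17720 genes tested in that fit, 2028 (11.4%) were lower and 3051 higher. The lower fat genes were 8 thermogenic (Ucp1, Ppargc1a, Prdm16, Pdk4, Cpt1b, Ppara, Gk and Plin5) and 6 general genes (Plin4, Cfd, Pnpla2, Dgat2, Car3 and Adrb3). Their medians were then -1.89 over all thermogenic and -1.23 over all general genes. Ucp1 fell by 2.16 on the log2 scale (edgeR adjusted p = 0.0465) and Plin4 fell by 0.57 (edgeR adjusted p = 0.000785). Leaving out control replicate 1 moved the median the other way, to -0.22 for the thermogenic and -0.26 for the general genes, with 0 fat genes called. Knockout replicate 3 is labelled like the other knockouts and nothing in the labels sets it apart.

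Taken as list medians, the balance of thermogenic against general genes differed much less than their level. Dio2, Prdm16, Zic1, S100b and Gk, with highest-to-lowest ratios of at most 2.63, count in the thermogenic median. Plin4 (1.52) and Retn (2.59) count in the general median. The thermogenic median minus the general median was 0.20, -0.15 and -0.10 for the controls. For the knockouts it was -0.16, -0.65 and 0.04. The values of the genotypes overlapped, with knockout replicate 2 the lowest. The mean of the knockouts minus that of the controls was -0.24, and -0.39 without knockout replicate 3. Per transcript length, the ratio of the Ucp1 to the Adipoq level (TPM) was 3.52, 1.87 and 1.96 in controls and 1.52, 1.32 and 2.89 in knockouts. This ratio was high in the libraries with the most fat RNA and lowest in knockout replicates 1 and 2. Fasn over Adipoq, at 2.80, 1.31 and 1.29 in controls and 1.55, 1.4 and 2.29 in knockouts, was likewise highest in control replicate 1 and knockout replicate 3, but lowest in control replicate 3. Not every pair of a thermogenic and a general gene ranked the libraries like Ucp1 over Adipoq. Plin5 over Plin1 was 0.113, 0.0997 and 0.105 in controls and 0.106, 0.0828 and 0.101 in knockouts. Cpt1b over Plin1 was 0.445, 0.363 and 0.353 in controls and 0.375, 0.283 and 0.385 in knockouts. In both, knockout replicate 1 exceeded control replicate 2. Cidea over Cidec did have its highest values in control replicate 1 and knockout replicate 3.

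**Figure D5:**
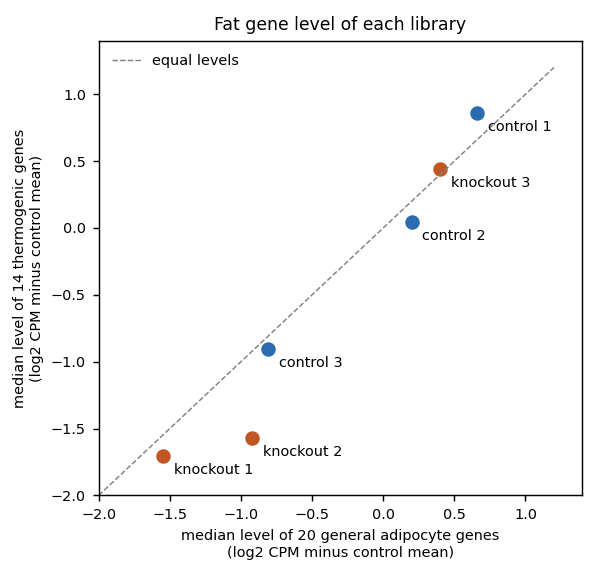
Median level of the 14 thermogenic genes (vertical) against that of the 20 general adipocyte genes (horizontal) in each library, both as log2 CPM minus the control mean, with a dashed line of equal values. The 6 libraries lie near the line, and knockout replicate 2 lies 0.65 below it.

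When the mean level of the general genes entered the fit as a covariate, 0 of the 14 thermogenic genes were called, where 298 of all tested genes (1.71%) were. The Ucp1 difference became -0.08 (standard error 0.20), that of Cidea -0.11 and that of Elovl3 -0.10. That of Ppargc1a went from -1.14 to -0.64 (standard error 0.21; edgeR adjusted p = 0.134), and that of Prdm16 from -0.58 to -0.57 (edgeR adjusted p = 0.161 here). Gk had the lowest adjusted p, with -0.32 (standard error 0.07; edgeR adjusted p = 0.0827), and S100b was at +0.42 (edgeR adjusted p = 0.180). The same fit without knockout replicate 3 called Prdm16 lower, at -0.93, and S100b higher, at +0.73 (edgeR adjusted p = 0.0425 and 0.0353), where 22.5% of all tested genes were called. Ucp1 was then at -0.31 (edgeR adjusted p = 0.470). With that library left out, the general medians of the genotypes did not overlap: -0.81 or above in controls, -0.92 or below in knockouts. The covariate itself was the mean over these genes, and its values by library are not given here. By the medians, general level and genotype cannot be cleanly separated in the fit without knockout replicate 3, and few libraries remain for both terms. Both covariate fits use the same libraries to set the covariate and describe them only.

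Among 30 further thermogenic genes, 29 were tested, 1 was called higher and 0 lower by edgeR (6.5% and 3.84% of all tested genes). The higher gene was Gatm, the enzyme that starts creatine synthesis, which averaged 2.76 ± 0.51 CPM over the controls against 7.32 ± 2.09 CPM over the knockouts (SD, n = 3 each). Its log2 difference was +1.41 (standard error 0.26; edgeR adjusted p = 0.0322), and a copy of Gatm holds the same values under another identifier. The respiratory subunits Cox7a1 and Cox8b followed the block instead, with Cox8b at 82.9, 51.5 and 24.2 CPM in controls and 10.9, 18.8 and 56.9 CPM in knockouts. The median difference over the list was -0.33. Without knockout replicate 3, 7 of the 30 were called lower and 1 (Gatm, +1.63) higher. Over all 17720 genes tested in that fit, 2028 (11.4%) were lower and 3051 higher.

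Among 30 further adipocyte genes, all were tested, 1 was called higher and 0 lower (6.5% and 3.84% of all tested genes). The higher gene was Sncg, gamma-synuclein of fat and nerve, at 40.7, 38.4 and 42.5 CPM in controls and 95.1, 78.9 and 60.1 CPM in knockouts. Its log2 difference was +0.95 (standard error 0.16; edgeR adjusted p = 0.0298). Without knockout replicate 3, 5 of the 30 were called lower and 1 (Sncg, +1.10) higher. Over all 17720 genes tested in that fit, 2028 (11.4%) were lower and 3051 higher. The lipogenic genes Gpd1, glycerol-3-phosphate dehydrogenase, and Thrsp, a regulator of lipogenesis, had the fat pattern, with Gpd1 at 867, 374 and 165 CPM in controls and 81.9, 121 and 589 CPM in knockouts. Lpl, lipoprotein lipase of fat, muscle and macrophages, did not have it. Its levels were 526, 366 and 199 CPM in controls and 512, 643 and 472 CPM in knockouts, so knockout replicates 1 and 2 were high where Adipoq was low. The macrophage markers above were highest in these same 2 libraries, and their part in the Lpl level was not tested. Cox7a1, Cox8b, Gpd1, Thrsp and Lpl were chosen for description after their values were seen.

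A subset of 6 fat genes, namely Dio2, Prdm16, Zic1, S100b, Gk and Plin4, was set apart after the values were seen. Their highest-to-lowest ratios lay between 1.52 and 2.63, and those of the other 28 between 2.59 and 17.8. These ranges overlapped, as Zic1 (2.63) was above Retn (2.59). Gk had the same order of libraries as Dgat2, which was not set apart. Other cells of a vessel can also express several of these 6. Smooth muscle markers, given above, were lower in all 3 knockouts than in any control as a sum, which is also the order of Plin4 and Prdm16, and their part in those 2 genes was not tested. B cell markers summed to 46.1 CPM in control replicate 2 and at most 7.22 CPM elsewhere, and none of the 4 passed the test. Mesothelial markers summed to 20.2, 77.7 and 20.2 CPM in controls and 10.2, 13.4 and 34.6 CPM in knockouts. Within the knockouts that is the order of the fat genes, and within the controls it is not. Thymocyte markers summed to 7.26, 4.01 and 0.361 CPM in controls, the order of the fat genes there, and to 2.62, 3.17 and 0.814 CPM in knockouts, in another order. The part of these tissues in the fat gene levels was not tested. Markers of skeletal muscle, which lies next to the fat of the chest wall, summed to between 5.21 and 7.46 CPM in all 6 libraries.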

How the data were processed

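Per the submitters' processing notes, kallisto 0.46.2, Trim Galore 0.6.5 and FastQC 0.11.8 were used for the 6 libraries, and the build was GRCm38. The authors deposited estimated counts per gene, which are not whole. In them 1 read was worth between 0.900 and 1.07 depending on the library, so totals are not raw depth. The second deposited table holds TPM values used as a signal, because its columns sum to between 955527 and 1034723. Whether strand was kept is not given in the sources used here, so overlapping genes cannot be separated.

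Estimated counts were rounded, filtered (filterByExpr, minimum count 10), TMM scaled and tested with edgeR 4.0.16 in R 4.3.3 (quasi-likelihood F-test, Benjamini-Hochberg adjusted p under 0.05 over all tested genes), as tested on simulated data. CPM values use TMM-scaled totals, and ranges use log2 CPM with a prior count of 2. Standard errors are the fold divided by the root of F. Alternatives were 3 other scalings, 2 other filters, DESeq2 1.42.0, limma 3.58.1 on voom weights or log2 TPM, a replicate block, a covariate, and each library left out. Groups and replicate numbers are those of the labels. Deviations of same-numbered libraries correlated at -0.09, 0.23 and 0.08, not all above 0.1, so the numbers were not taken as pairs. All 34 members are named. In the further thermogenic and adipocyte lists, those that passed with all 6 libraries are named. Marker lists are mostly given as sums or counts. Endothelial markers (2 of 5 higher, 0 lower) and cardiac muscle markers (0 of 5 called) were read too. Members and lists were chosen with earlier results of these data known. Gene coordinates are from GENCODE.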

Additional observations from a re-analysis of the deposited data

How the results depend on the processing

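The count of fat genes called lower was 0 in the edgeR fit on all libraries, 4 with DESeq2, and between 0 and 14 when each library was left out, with 14 only without knockout replicate 3. With the replicate block 1 was called (Prdm16), but the labels do not say that the replicate numbers are pairs, and they were not taken as such. The other scalings, filters and limma fits gave 0, and none of the fits without the covariate called a fat gene higher. Calls over all tested genes were 1798, and became 3443 with DESeq2, 1073 with limma-voom, 712 on log2(TPM + 1), 942 on log2(TPM + 0.1) and 0 to 5079 when a library was left out (0 without control replicate 1 or 3, 5079 without knockout replicate 3, and 12 to 71 otherwise). The thermogenic median lay between -1.89 and -0.22 on leaving out a library and was -0.15 with the covariate and -0.33 with the covariate without knockout replicate 3, a fit added after seeing the data, as were the spread and balance without that library.

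Of the values of single fat genes under the alternatives, 537 kept their direction and side of the threshold, 21 newly passed and 12 changed sign. Leaving out a library gave log2 differences of -2.68 to 0.26 for Elovl3, -2.27 to 0.0021 for Otop1, -0.78 to 0.0376 for Pparg, -1.44 to 0.0317 for Trarg1, -1.21 to 0.11 for Acaca and -1.90 to 0.41 for Fasn, with the highest value of each without control replicate 1, and -0.54 to 0.36 for Lep. Otop1 was 0.0219 with the covariate, Dio2 0.20 and Zic1 -0.48 with the covariate without knockout replicate 3, and Lep 0.0316 on log2(TPM + 0.1). None of the values that changed sign passed the test. The cause of each change was not tested. With 3 libraries a group, median ranges inside a group were 1.58 and 1.89 (log2). The fitted difference was smaller than the range inside both groups for 30 of the 34 genes. Without knockout replicate 3, whose removal leaves a knockout range from replicates 1 and 2 only, it was so for 3. By the control range alone it was then so for 21. These counts were not taken over all tested genes.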
